A study of Mus musculus with 224 samples.

Results

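Gene expression in the prefrontal cortex (PFC) was compared with that in the hippocampus (HPC) of mice that had never received ethanol. The comparison was defined by region and treatment: all arrays of the Air NonDrinking group from the medial prefrontal cortex, 12 mice, were set against all arrays of that group from the hippocampus, 8 mice. These are 20 of the 224 arrays of a study of chronic intermittent ethanol vapor (CIE) and ethanol drinking in 5 brain regions. A mouse gave at most 1 array per region.

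The Air NonDrinking mice were male C57BL/6J animals, bought at 10 weeks of age and acclimated for 2 weeks. They sat in control chambers that delivered air for 16 h a day on 4 days in each of 4 cycles, were injected with saline and 1 mmol/kg pyrazole, an inhibitor of alcohol dehydrogenase, before chamber sessions, and drank only water. PFC and HPC samples thus share strain, sex, handling and pyrazole, and differ in tissue. All 8 HPC mice also gave a PFC array, whereas 4 PFC mice had no HPC array here. The arrays of a region were processed and normalized apart from those of the other region, so that the effects of region and of processing run cannot be told apart. The samples were dissected tissue, in which fewer cells of a type and less RNA per cell cannot be told apart.

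The rodent prefrontal cortex is a sheet of layered neocortex, in which upper layers hold neurons that project within the cortex and deep layers hold neurons that project to the thalamus, striatum and brainstem. The hippocampus is an older, folded cortex with a relay of 3 excitatory fields, the dentate gyrus with its small granule cells and the pyramidal cells of CA3 and CA1. NEUROD1 and PROX1 are transcription factors of dentate granule cells, and CUX2 is a transcription factor of upper-layer cortical neurons.

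The deposited values were log2 intensities, with array medians of 6.07 to 6.13 in PFC and 6.87 to 6.92 in HPC. Since these levels were set by the separate normalization of each region, each array was turned into percentile ranks, from 0 for the dimmest to 100 for the brightest of 44463 probesets with values in both regions. A rank is a place in the order of a tissue, and an increase of some genes lowers the ranks of others. A difference is PFC minus HPC in percentile points, and was called at a Benjamini-Hochberg adjusted p of 0.01 or less, from limma, with at least 10 points. Ranks of a gene are given below as those of the lowest, the median and the highest array of a region. Genes near the top of the order have little room to move, so differences of log2 values after quantile normalization of all arrays together are given beside the points. Across probesets, an array correlated at 0.9937 or more with the mean of the other arrays of its region, and at 0.952 to 0.964 with the mean of the other region.

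Of 18064 genes, each represented by its brightest probeset, 1009 were called higher in PFC than in HPC (5.59%) and 1362 lower (7.54%). For 8094 genes (44.8%) the arrays of PFC and HPC did not overlap at all. Of 44463 probesets, 3560 were called higher (8.01%) and 3791 lower (8.53%), together 16.5%, and 29950 (67.4%) passed the adjusted p alone, 15435 higher (34.7%) and 14515 lower (32.6%). The share called higher among called probesets was 48.4%. With array medians subtracted in place of ranks it was 67.5%, since the median probeset then lay 0.21 higher in PFC on the log2 scale, and with joint quantile normalization it was 49.6%.

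**Figure D1:**
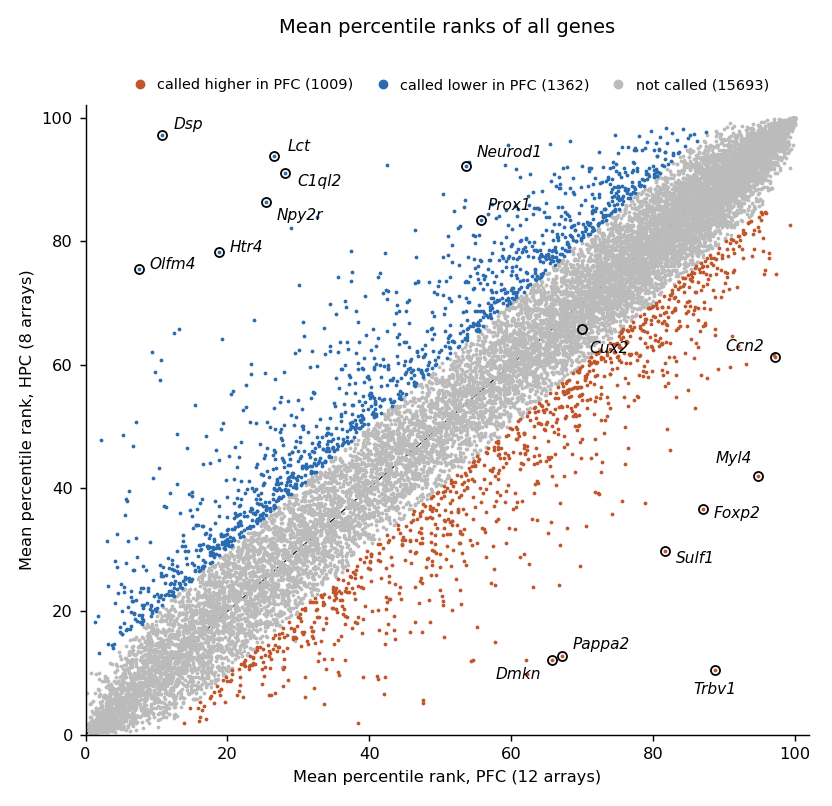
Mean percentile rank of each of 18064 genes in the PFC (x axis, 12 arrays) and the HPC (y axis, 8 arrays) of Air NonDrinking mice, with the diagonal as a line. The 1009 genes called higher in PFC lie below the diagonal and the 1362 called lower lie above it, with Dsp in the upper left corner and Trbv1 in the lower right.

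The label of the tissue was checked with 1 marker of each side. Neurod1 (chr2:79452637-79456636, GRCm38.p6) had ranks of 49.3, 54.3 and 57.2 in PFC and 89.7, 92.7 and 93.6 in HPC, and no PFC array reached the lowest HPC array. Its difference was -38.6 points (SE 1.03, adjusted p = 2.72e-17 by limma), a log2 difference of -3.94, and its other probeset differed by -39.8 points. Cux2 (chr5:121857962-122050415), by contrast, had ranks of 65.3, 70.3 and 74.99 in PFC and 61.5, 64.8 and 76.3 in HPC. The ranges overlapped, HPC mouse 49 ranked above every PFC array, and the difference of 4.20 points (SE 1.67, adjusted p = 0.0283 by limma) was not called. With array medians subtracted in place of ranks Cux2 was called higher, at a log2 difference of 0.54 (adjusted p = 0.00114 by limma). Neither of the other 2 probesets of Cux2 was called on ranks. Cux2 thus did not separate the tissues on ranks, and the cortical side of the label was not borne out by its marker. The layer genes described below were chosen with earlier results of these data known, and are a description, not a second check. Foxp2, the largest of them, ranked higher in the nucleus accumbens than in the PFC.

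**Figure D2:**
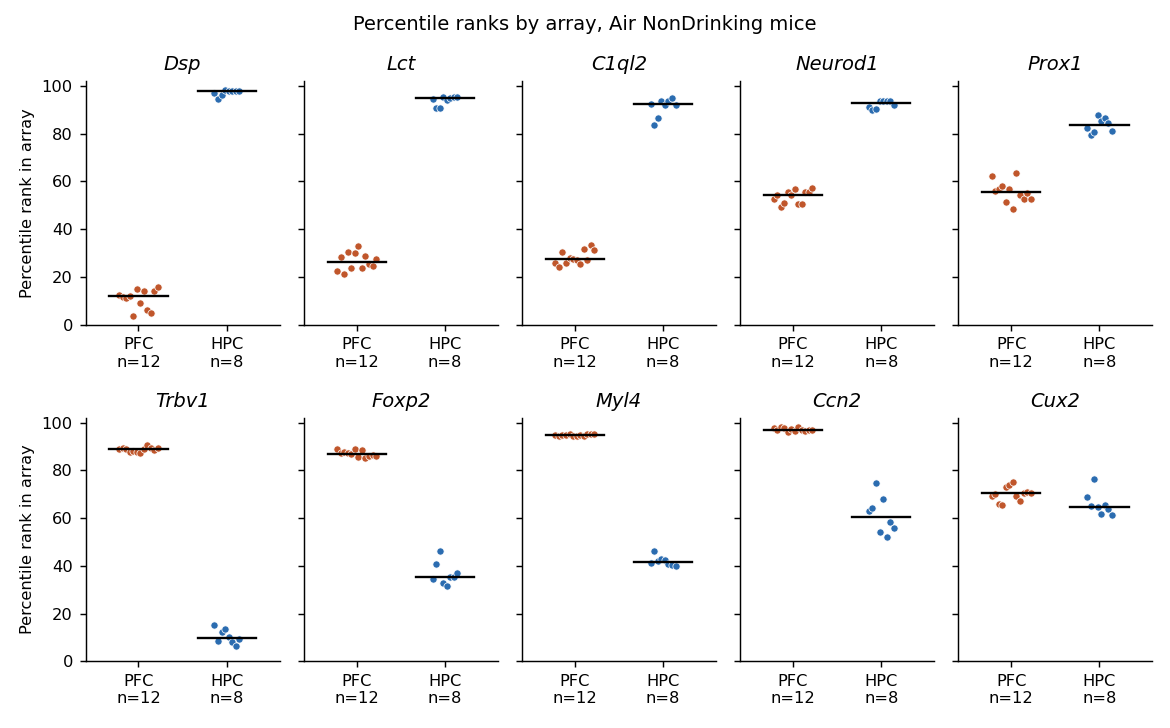
Percentile ranks of 10 genes in each array (y axis), PFC left (12 arrays) and HPC right (8 arrays), with the median as a line. For 9 genes the arrays of the regions do not overlap, with Dsp, Lct, C1ql2, Neurod1 and Prox1 lower and Trbv1, Foxp2, Myl4 and Ccn2 higher in PFC, while those of Cux2 overlap.

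Genes of dentate granule cells had the largest median difference of the 30 gene lists in either direction. All 17 genes of the list had lower ranks in every PFC array than in every HPC array. Among all genes, the arrays of 44.8% did not overlap in either direction. Of the 17 members 13 were called lower, beside 7.54% of all genes. The list median was -27.8 points, beside 0.002 over all genes. The members were chosen with earlier results of these data known, so these counts describe the list and do not test it. Desmoplakin (Dsp), a plaque protein of desmosomes, and located at chr13:38151294-38198577, had ranks of 3.78, 11.9 and 15.7 in PFC and 94.5, 97.8 and 98.1 in HPC. It was among the dimmest probesets in every PFC array and at the top of the order in every HPC array, with a difference of -86.3 points (SE 1.41, adjusted p = 1.29e-20 by limma), the largest of all genes, and a log2 difference of -8.02. Of its 2 other probesets 1 was called lower and the other differed by -6.22 points. Lactase (Lct), better known from the gut, had ranks of 21.3, 26.4 and 32.98 in PFC and 90.7, 94.8 and 95.4 in HPC and a difference of -67.2 points, SE 1.36. C1ql2, a secreted synapse organizer of the C1q family, had ranks of 24.2, 27.4 and 33.3 in PFC and 83.6, 92.3 and 94.8 in HPC, a difference of -62.96 points, SE 1.46. Neither gene had a PFC array near an HPC array.

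Tdo2, an enzyme that degrades tryptophan, had ranks of 26.7, 33.2 and 36.8 in PFC and 76.1, 86.2 and 88.1 in HPC. Prox1 had ranks of 48.6, 55.7 and 63.3 in PFC and 79.4, 83.4 and 87.96 in HPC, with a difference of -27.8 points, SE 1.68, and its 2 other probesets were also called lower. The regions were again apart, though Prox1 lay in the middle of the order in PFC. The calcium buffer Calb1, C1ql3, Stxbp6 and Fam163b were the 4 members not called, and the first 3 of them lay near the ceiling of the rank scale. All 3 other probesets of Calb1 were called lower. Those of C1ql3, at mean ranks of 83.4 and 85.2 in PFC, differed by -4.87 and 4.74 points, and neither was called. Calb1 had mean ranks of 90.5 in PFC and 98.5 in HPC and a log2 difference of -1.98, C1ql3 of 94.8 in PFC and 98.9 in HPC and -1.40, and Stxbp6 of 91.4 in PFC and 98.6 in HPC and -1.90. On the joint log2 scale, with at least 0.5, all 17 members were called lower, where 14.9% of all genes were called higher and 17.4% lower.

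The promoters of Prox1 and Dsp are shown because these genes stand for the granule cell group, the first as its transcription factor and the second as its largest difference. The windows run from 250 bases before to 50 after a gene's start (RefSeq, GRCm38.p6), at chr1:190170778-190171077, minus strand, 1 of 2 windows of Prox1, and at chr13:38151044-38151343, plus strand. Capitals mark CAGATG, an E-box of the kind that NEUROD proteins bind, searched on both strands. The Prox1 window shown was picked by its number of such matches.
Prox1: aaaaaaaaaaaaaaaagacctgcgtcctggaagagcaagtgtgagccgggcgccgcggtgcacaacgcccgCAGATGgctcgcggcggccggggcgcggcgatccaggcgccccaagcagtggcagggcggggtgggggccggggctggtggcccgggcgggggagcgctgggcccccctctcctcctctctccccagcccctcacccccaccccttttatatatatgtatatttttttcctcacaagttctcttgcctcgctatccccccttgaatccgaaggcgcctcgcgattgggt
Dsp: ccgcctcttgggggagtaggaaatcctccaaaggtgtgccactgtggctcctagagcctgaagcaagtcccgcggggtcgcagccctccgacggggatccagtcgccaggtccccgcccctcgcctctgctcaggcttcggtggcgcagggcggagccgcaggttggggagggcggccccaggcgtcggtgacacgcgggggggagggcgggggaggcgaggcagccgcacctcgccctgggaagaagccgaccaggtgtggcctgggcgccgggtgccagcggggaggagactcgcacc
Of the 16 list members with a window, 2 held the motif (12.5%), Prox1 and Il16, beside 19.2% of 27025 genes. The window of Dsp held none, and these letters in a window are a description, not a binding site.

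Of 15 ranked genes of CA pyramidal cells 7 were called lower and 2 higher in PFC, with a median of -7.66 points. Of all genes 7.54% were called lower and 5.59% higher. Iyd, which deiodinates iodotyrosines, had ranks of 5.18, 10.6 and 15.1 in PFC and 43.96, 58.2 and 65.8 in HPC, a difference of -46.96 points (SE 2.25, adjusted p = 1.71e-13 by limma). Fibcd1, an endocytic receptor used as a marker of CA1, had ranks of 31.7, 34.2 and 40.1 in PFC and 57.9, 67.8 and 85.01 in HPC, and Spink8, a serine protease inhibitor, had ranks of 36.04, 39.7 and 47.2 in PFC and 54.3, 75.1 and 90.7 in HPC. The HPC arrays of both genes were spread far more widely than the PFC arrays, yet did not reach them. Lefty1, a secreted antagonist of NODAL signaling, had ranks of 39.3, 42.2 and 48.4 in PFC and 61.9, 69.6 and 86.1 in HPC, a difference of -29.2 points, SE 2.72. The 2 members called higher in PFC were Socs2, a suppressor of cytokine signaling, with mean ranks of 85.4 in PFC and 64.1 in HPC, and the kainate receptor subunit Grik4, with 66.6 in PFC and 56.3 in HPC.

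The HPC arrays differed among themselves in these genes. Mouse 48 had the highest HPC ranks of Fibcd1 (85.01), Spink8 (90.7) and Lefty1 (86.1), the lowest of Iyd (43.96), and the lowest mean rank of the granule cell list (82.8). Mouse 50 had the highest of Iyd (65.8) and of the granule cell list (90.2), and the lowest of Ldb2 (61.2) and Gabra3 (64.2). Mice 48 and 49, with the lowest granule cell means, had the highest HPC ranks of Ldb2 (90.9 and 91.9), Gabra3 (86.2 and 86.01) and Fezf2 (88.6 and 86.6), 3 genes called higher in PFC. The part of this spread in the differences between the regions was not tested.

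Other genes with large differences on the hippocampal side have no single role. The 15 largest falls in PFC among genes with a mean rank of at least 50 in HPC ran from 46.96 to 86.3 points in size, and in none of them did the arrays overlap. Olfm4, a secreted olfactomedin, had ranks of 2.48, 7.80 and 13.8 in PFC and 65.5, 77.2 and 81.3 in HPC. Npy2r, a receptor of neuropeptide Y, had ranks of 19.8, 25.1 and 30.1 in PFC and 83.04, 86.9 and 89.8 in HPC, and Htr4, a serotonin receptor, 12.3, 19.5 and 24.9 in PFC and 73.5, 78.9 and 81.8 in HPC. All 3 were thus among the dimmer probesets in every PFC array and among the brighter in every HPC array. The other probeset of Htr4 differed by only -0.197 points, so that the value rests on 1 probeset.

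Smoc2, a matrix-associated calcium-binding protein, had ranks of 21.3, 28.3 and 40.7 in PFC and 72.6, 83.1 and 87.1 in HPC, and Shisa6, an auxiliary protein of AMPA receptors, 36.3, 42.6 and 48.01 in PFC and 89.96, 92.4 and 94.1 in HPC. Their other probesets were called lower as well. Klotho (Kl) had ranks of 5.78, 11.6 and 22.3 in PFC and 60.95, 64.7 and 69.7 in HPC, whereas its other probeset lay 6.76 points higher in PFC. The remaining ones were Lpar4, a receptor of lysophosphatidic acid (-52.7 points), Krt2, a keratin (-50.1), Ripply2, a transcriptional repressor (-49.02), and Vwa3b (-52.5). Of the 7 leading genes of this direction with further probesets, 5 had at least 1 of these called lower too.

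Of 13 ranked genes of deep cortical layers 5 were called higher in PFC, beside 5.59% of all genes, with a median of 9.36 points. By limma 0 were called lower, beside 7.54% of all genes. However, 2 members had a lower rank at an unadjusted p under 0.05, and 1 was called lower on the joint log2 scale. The member called lower there was Bcl11b, with a difference of -2.52 points and a log2 difference of -0.990. Its other probesets were lower too, though not called on ranks. Foxp2, a transcription factor of layer 6 neurons at chr6:14901349-15441977, had ranks of 85.3, 86.9 and 89.1 in PFC and 31.7, 35.3 and 46.02 in HPC. The regions were far apart, with a difference of 50.4 points (SE 1.35, adjusted p = 3.14e-17 by limma), a log2 difference of 4.55, and all 5 other probesets of Foxp2 were called higher. Sox5, which shapes the fate of deep-layer neurons, had ranks of 74.7, 79.2 and 82.2 in PFC and 52.99, 58.2 and 67.6 in HPC, a difference of 20.2 points, SE 1.74. Ldb2, a cofactor of LIM-domain proteins, had ranks of 95.8, 96.3 and 97.01 in PFC and 61.2, 77.1 and 91.9 in HPC, and Fezf2, which specifies subcerebral projection neurons, 87.5, 88.7 and 89.9 in PFC and 70.6, 75.1 and 88.6 in HPC. For Fezf2 HPC mouse 48 ranked within the PFC arrays, and the difference was 11.3 points, SE 2.00. Tbr1, a T-box factor of layer 6, had ranks of 76.8, 81.7 and 83.8 in PFC and 64.3, 69.4 and 75.2 in HPC, with no overlap.

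Of 8 genes of layer 6b and the claustrum 3 were called higher and 1 lower, beside 5.59% and 7.54% of all genes. Ccn2, a secreted matricellular protein and marker of layer 6b, had ranks of 96.2, 96.97 and 98.2 in PFC and 52.00, 60.5 and 74.5 in HPC, a difference of 35.97 points (SE 2.09, adjusted p = 3.44e-12 by limma) and a log2 difference of 4.43. Cplx3, a complexin of the release machinery, had ranks of 78.2, 81.2 and 86.2 in PFC and 45.7, 48.8 and 56.2 in HPC. Both genes ranked high in PFC and nearer the middle of the order in HPC, without overlap. The dopamine receptor Drd1 was called at 11.4 points with overlapping arrays, and with array quality weights it had 9.82 points and was no longer called. Ntng2, a netrin-G, was called lower (-12.03 points), but not with its probesets averaged (-6.76 points).

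Of 12 ranked upper-layer genes 2 were called higher and 1 lower, beside 5.59% and 7.54% of all genes, with a median of 2.42 points. Joint quantile normalization called 5 higher and 4 lower, beside 14.9% and 17.4% of all genes. Kcnh5, a voltage-gated potassium channel, had ranks of 44.4, 46.7 and 48.1 in PFC and 16.04, 17.7 and 24.6 in HPC, a difference of 28.2 points (SE 0.849, adjusted p = 1.77e-16 by limma). Pou3f2, a POU factor of upper layers, had 59.7, 66.9 and 70.6 in PFC and 47.6, 51.3 and 53.3 in HPC. Both were higher in every PFC array, at lower ranks than Foxp2 or Ccn2. Mdga1 was called lower (-12.6 points), and Cux1 differed by 2.01 points with an adjusted p of 0.0139 by limma. Without overlap of arrays 5 members were higher and 3 lower, where 44.8% of all genes did not overlap. Besides Mdga1, the lower ones were Rorb and Rasgrf2, neither called. Rorb lay at 68.96 to 73.3 in PFC and 77.3 to 83.6 in HPC. Rasgrf2 lay at 87.3 to 91.1 in PFC and 96.25 to 98.3 in HPC. HPC mouse 49 had the highest HPC ranks of Cux2 (76.3), Ccn2 (74.5), Cbln2 (61.7) and Foxp2 (46.02). Without this array all 101 called genes that the naming rule picked were still called.

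The 15 largest differences in favor of the PFC ran from 39.1 to 78.1 points, again with no overlap of arrays. Trbv1, a variable segment of the T cell receptor beta locus at chr6:40891296-40891885, had ranks of 87.2, 88.9 and 90.6 in PFC and 6.66, 9.94 and 15.4 in HPC, a difference of 78.1 points (SE 0.874, adjusted p = 4.96e-23 by limma) and a log2 difference of 6.34. Its other probeset was called at 17.8 points. Myl4, a myosin light chain of the atrium and of embryonic muscle, had ranks of 94.2, 94.7 and 95.3 in PFC and 39.9, 41.6 and 46.2 in HPC. Its PFC arrays spanned about 1 point, at a difference of 52.8 points, SE 0.565, whereas the second probeset differed by 9.22 points and was not called. Sulf1, which trims 6-O-sulfates of heparan sulfate, had ranks of 77.9, 82.2 and 84.7 in PFC and 26.3, 30.4 and 31.6 in HPC.

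Pappa2, a protease of insulin-like growth factor binding proteins, had ranks of 63.2, 67.6 and 69.7 in PFC and 10.6, 13.00 and 15.2 in HPC, and Arhgap25, a GTPase-activating protein, 77.1, 78.96 and 80.01 in PFC and 32.5, 38.04 and 41.8 in HPC. These genes were in the lower part of the order in every HPC array. The others were Dmkn, known from the epidermis (53.7 points), Tnmd, known from tendon (52.4), Serpinb8, a serpin (50.01), Gm2102, a predicted gene (42.8), Aldh1a7, an aldehyde dehydrogenase (42.5), Dkkl1 (42.5), Myhas, a non-coding antisense gene (42.5), Ovol2, a zinc finger factor (42.4), and Prss22, a serine protease (39.1). Of the 7 leading genes of this direction with further probesets, 5 had at least 1 of these called higher too, and Gm2102 and Myl4 had none.

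**Figure D3:**
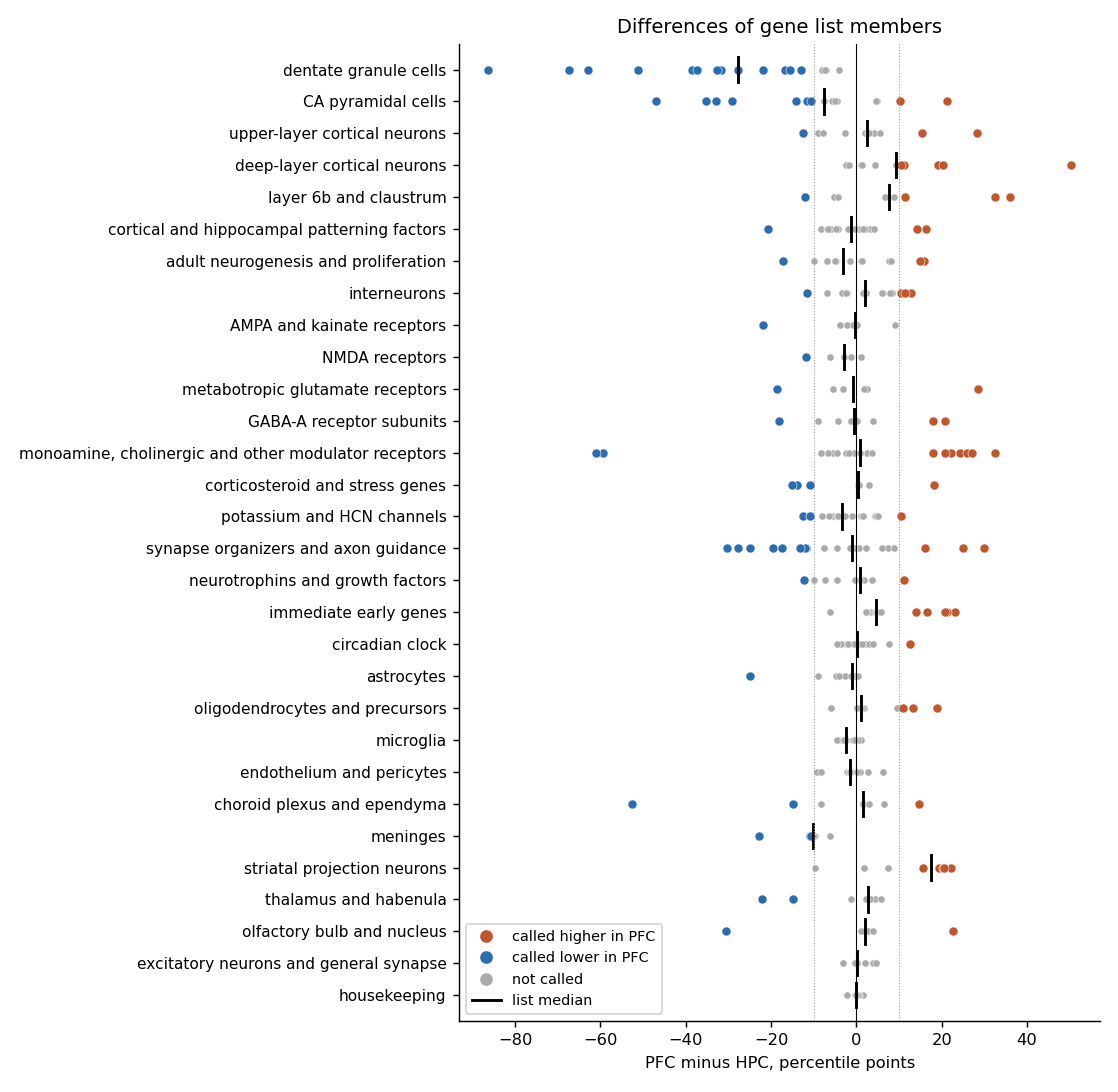
Difference of each ranked member of 30 gene lists (x axis, PFC minus HPC in percentile points, 1 list per row), with called members in color and the list median as a line. Dotted lines mark 10 points. The dentate granule cell list reaches -86.3 points, and deep-layer and striatal lists lie to the right of 0.

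Among all genes 13.1% were called in either direction, a share to set beside the counts of the small families that follow. Of 8 AMPA and kainate receptor subunits 1 was called lower, Grik2, with ranks of 44.3, 50.2 and 52.6 in PFC and 67.3, 71.6 and 73.9 in HPC. Its other probeset differed by -0.999 points. Of 5 NMDA receptor subunits 1 was called lower, Grin2d, with 41.9, 47.2 and 52.1 in PFC and 56.7, 59.5 and 60.00 in HPC. Its other probeset differed by -4.31 points, and the mean of its probesets, at -8.06 points, was not called. Gria1, an AMPA receptor subunit, was near the ceiling at mean ranks of 95.01 in PFC and 98.7 in HPC, with a log2 difference of -1.27. Of 6 metabotropic glutamate receptors Grm8 was called higher, with ranks of 69.7, 72.6 and 77.3 in PFC and 33.01, 45.8 and 51.99 in HPC, and Grm2 lower, with 61.9, 65.3 and 68.3 in PFC and 77.8, 85.1 and 87.6 in HPC. Both are inhibitory presynaptic receptors, and neither overlapped between the regions.

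Of 9 ranked GABA-A receptor subunits 2 were called higher and 1 lower. Gabra3, the alpha-3 subunit, had ranks of 94.99, 95.6 and 96.1 in PFC and 64.2, 74.7 and 86.2 in HPC, a difference of 20.8 points (SE 2.41, adjusted p = 1.29e-07 by limma). Gabra2, the alpha-2 subunit, had ranks of 58.6, 62.04 and 64.2 in PFC and 78.5, 80.6 and 82.04 in HPC, a difference of -18.2 points (SE 0.656, adjusted p = 2.55e-15 by limma), and 2 of its 3 other probesets were called lower. Gabrg3 was the second subunit called higher, with ranks of 57.6, 62.3 and 67.2 in PFC and 41.4, 44.9 and 51.01 in HPC. The other 6 ranked subunits were not called.

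Of 21 ranked receptors for monoamines, acetylcholine, opioids and peptides 7 were called higher and 2, Npy2r and Htr4, lower, and the median was 0.891 points. The kappa opioid receptor Oprk1 had ranks of 53.7, 56.6 and 60.96 in PFC and 22.4, 24.9 and 25.8 in HPC, a difference of 32.6 points (SE 0.906, adjusted p = 5.07e-17 by limma), and its other probeset was called higher too. The adrenergic receptor Adra1b had ranks of 50.7, 52.2 and 55.02 in PFC and 22.5, 25.6 and 27.8 in HPC. In both cases the HPC arrays lay in the lower part of the order and the PFC arrays around its middle. Mean ranks of the others were 66.4 in PFC and 40.4 in HPC for the nicotinic subunit Chrna4, 43.4 in PFC and 19.2 in HPC for the muscarinic receptor Chrm3, 42.8 in PFC and 22.1 in HPC for the delta opioid receptor Oprd1, 47.1 in PFC and 24.95 in HPC for the dopamine receptor Drd2 and 72.6 in PFC and 54.6 in HPC for the somatostatin receptor Sstr2. The serotonin receptor Htr1a had ranks of 62.6, 64.9 and 68.4 in PFC and 59.4, 63.2 and 72.2 in HPC, a difference of 0.817 points, SE 1.40, and was not called.

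Of 23 ranked synapse organizers and guidance molecules 8 were called lower and 3 higher in PFC. Epha6, an ephrin receptor, had ranks of 28.2, 32.8 and 35.4 in PFC and 56.6, 61.2 and 69.9 in HPC, and Nrp2, a semaphorin receptor, 51.7, 57.1 and 61.8 in PFC and 79.4, 84.98 and 87.7 in HPC. Ntng1, a netrin-G that binds a postsynaptic partner, had ranks of 56.4, 62.9 and 66.1 in PFC and 85.5, 87.5 and 89.4 in HPC, and all 3 of its other probesets, like those of Nrp2, were called lower. These differences of -30.2, -27.7 and -25.01 points were larger than the range of the arrays within either region. Cbln2, a cerebellin that links neurexins to postsynaptic receptors, was higher in PFC, with ranks of 70.9, 76.9 and 80.4 in PFC and 39.7, 43.5 and 61.7 in HPC and a difference of 29.9 points, SE 2.41. HPC mouse 49 was the nearest to PFC, and the next HPC array stood at 55.3.

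Of 18 ranked potassium and HCN channel genes 3 were called lower and 1 higher, with a median of -3.46 points. Joint quantile normalization called 10 lower and 4 higher, and 10 were lower and 4 higher in every PFC array than in every HPC array. For all genes that scale called 17.4% lower and 14.9% higher, and the arrays of 44.8% did not overlap. Hcn2, a pacemaker channel, had ranks of 56.8, 59.2 and 61.01 in PFC and 69.7, 71.3 and 74.1 in HPC, a difference of -12.6 points (SE 0.583, adjusted p = 1.10e-13 by limma). Kcnq5, an M-current channel, was called higher at 10.6 points with overlapping arrays, and its 2 other probesets were called higher too. Kcnj6, a G-protein-gated channel, was called lower at -10.97 points, but its 4 other probesets ran from -10.4 to 13.6 points. Among 11 growth factor genes 1 was called in each direction, beside 5.59% of all genes higher and 7.54% lower. Bdnf, the neurotrophin of activity-dependent plasticity, had ranks of 69.7, 75.5 and 76.6 in PFC and 82.8, 87.1 and 88.8 in HPC, a difference of -12.2 points (SE 1.02, adjusted p = 1.10e-09 by limma), and its second probeset was called lower as well. Neuregulin 1 (Nrg1) was called higher at 11.3 points.

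Genes of the corticosteroid response are of interest in the study of ethanol because withdrawal activates the stress axis. The mineralocorticoid receptor Nr3c2 had ranks of 80.8, 81.9 and 83.8 in PFC and 94.7, 96.2 and 96.3 in HPC, a difference of -13.9 points (SE 0.375, adjusted p = 3.43e-17 by limma) and a log2 difference of -2.07. The glucocorticoid receptor Nr3c1 had ranks of 92.4, 92.8 and 93.5 in PFC and 91.3, 92.7 and 93.2 in HPC, and its difference of 0.293 points (SE 0.262, adjusted p = 0.319 by limma) was not called, though 1 of its 5 other probesets was called in each direction. Fkbp5, a chaperone that glucocorticoids induce, had ranks of 74.9, 76.1 and 77.6 in PFC and 89.6, 91.5 and 92.02 in HPC, a difference of -15.1 points, SE 0.419. The activating enzyme Hsd11b1 was also called lower (-10.9 points). Crhbp, which binds corticotropin-releasing hormone, was the member called higher, with ranks of 78.9, 81.8 and 84.2 in PFC and 49.2, 62.5 and 78.8 in HPC. Its HPC range was the widest of the list, and HPC mouse 48 came within 1 point of the lowest PFC array.

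Immediate early genes are those that neurons transcribe within minutes of activity. Of 14 members 5 were called higher in PFC and 0 lower by limma, 12 were higher and 1 lower at an unadjusted p under 0.05, and the median was 4.70 points. Joint quantile normalization called 8 higher and 1 lower, beside 14.9% of all genes higher and 17.4% lower. Fos had ranks of 79.5, 89.9 and 95.4 in PFC and 60.3, 64.6 and 74.8 in HPC, a difference of 23.04 points (SE 2.21, adjusted p = 8.34e-09 by limma). Npas4 had ranks of 58.7, 67.3 and 77.4 in PFC and 36.8, 47.99 and 57.6 in HPC, and Egr2 37.95, 46.4 and 65.5 in PFC and 19.8, 26.9 and 34.5 in HPC. The PFC arrays of both were widely spread. Dusp1, a phosphatase that limits MAP kinase signaling, had ranks of 91.2, 94.1 and 96.9 in PFC and 73.2, 76.3 and 82.4 in HPC. Arc was the fifth, at mean ranks of 83.04 in PFC and 69.2 in HPC, whereas Fosb had a difference of 4.21 points, SE 0.952. In none of the 4 genes given by array did the regions overlap. For Arc they did, with PFC as low as 76.9 and HPC as high as 77.3. Without overlap of arrays 6 of the 14 members were higher and 1 lower, where 44.8% of all genes did not overlap. The lower member was Egr3, at -6.08 points and not called on ranks, with a joint log2 difference of -1.26.

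The promoters of Fos, Npas4 and Dusp1 are shown because many immediate early genes respond to calcium and cyclic AMP through CREB. Capitals mark its half-site TGACG, searched on both strands (CGTCA where it lies on the other strand), which in Dusp1 forms the full palindrome TGACGTCA. The windows (RefSeq, GRCm38.p6) lie at chr12:85473640-85473939, plus strand, at chr19:4989922-4990221, minus strand, and at chr17:26508423-26508722, minus strand.
Fos: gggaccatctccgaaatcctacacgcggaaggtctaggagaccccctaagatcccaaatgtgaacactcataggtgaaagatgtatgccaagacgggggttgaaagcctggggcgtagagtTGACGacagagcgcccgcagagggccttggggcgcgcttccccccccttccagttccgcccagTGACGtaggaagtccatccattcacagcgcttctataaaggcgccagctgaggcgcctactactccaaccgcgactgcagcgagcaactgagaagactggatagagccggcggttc
Npas4: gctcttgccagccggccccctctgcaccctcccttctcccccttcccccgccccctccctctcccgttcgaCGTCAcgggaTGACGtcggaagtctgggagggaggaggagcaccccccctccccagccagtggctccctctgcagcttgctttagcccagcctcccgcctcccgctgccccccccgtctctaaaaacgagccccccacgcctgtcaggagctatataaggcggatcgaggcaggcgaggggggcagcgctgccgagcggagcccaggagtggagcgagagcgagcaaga
Dusp1: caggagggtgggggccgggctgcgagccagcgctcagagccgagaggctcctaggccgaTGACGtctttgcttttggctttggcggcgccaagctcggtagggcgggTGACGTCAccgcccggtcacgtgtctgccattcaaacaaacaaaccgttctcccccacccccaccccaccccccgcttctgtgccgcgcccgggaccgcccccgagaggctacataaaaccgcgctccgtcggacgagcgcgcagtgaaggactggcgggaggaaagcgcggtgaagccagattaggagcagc
Counted from the gene's start, the matches begin at -129 and -66 in Fos, at -179 and -169 in Npas4, and at -191 to -140 in Dusp1, which has 3. All 10 members of the list with a window held the half-site, the 4 called ones and the 6 others alike, beside 23% of 27025 genes.

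The PFC arrays varied together in several genes. Mice 49 and 54 had Fos at 94.9 and 95.4, Egr2 at 63.5 and 65.5, and also the lowest PFC ranks of Drd2, at 31.4 and 30.2. Mice 45, 48 and 52 had the 3 lowest Fos ranks in PFC, 83.2, 83.8 and 79.5, and high meningeal genes. Mouse 55 had high meningeal genes as well, but its Fos ranked at 92.1. Mouse 52, with the lowest Fos rank, still lay above every HPC array. The part of this spread in the difference between the regions was not tested. The 14 clock genes had a median of 0.125 points, and Npas2 was the only one called, with ranks of 71.8, 75.1 and 76.4 in PFC and 57.1, 62.1 and 69.03 in HPC. Its other probeset differed by 0.536 points, and with its probesets averaged it had 6.51 points and was not called. Per2 differed by -2.39 points, SE 0.933.

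Of 16 interneuron genes 3 were called higher and 1 lower, with a median of 1.96 points. Pvalb, the calcium buffer of fast-spiking cells, had ranks of 91.8, 94.04 and 96.1 in PFC and 76.4, 79.1 and 88.1 in HPC, a difference of 12.9 points (SE 1.44, adjusted p = 7.84e-08 by limma). The tachykinin precursor Tac1 (11.4 points) and the transcription factor Lhx6 of medial ganglionic eminence cells (10.5) were the others, though the further probesets of both were not called. Nos1, the neuronal nitric oxide synthase, had ranks of 72.1, 76.1 and 79.3 in PFC and 86.5, 87.5 and 88.3 in HPC, and was not called with its probesets averaged (-7.73 points). Joint quantile normalization called 8 of the 16 higher and 3 lower, beside 14.9% of all genes higher and 17.4% lower. Gad1, which makes GABA, was at mean ranks of 96.7 in PFC and 98.9 in HPC and not called on ranks, with a joint log2 difference of -0.92 (adjusted p = 6.91e-13 by limma).

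Among 17 ranked patterning factors 2 were called higher and 1 lower, against 3 higher and 6 lower with joint quantile normalization. For all genes the shares were 5.59% higher and 7.54% lower on ranks, and 14.9% higher and 17.4% lower on the joint scale. Emx2, a homeobox factor needed for hippocampal growth, had ranks of 51.6, 55.2 and 57.3 in PFC and 73.6, 75.9 and 77.9 in HPC, a difference of -20.8 points (SE 0.770, adjusted p = 3.80e-15 by limma). Meis2 had 88.6, 90.6 and 92.2 in PFC and 63.6, 74.4 and 85.3 in HPC, and Otx1 57.03, 58.6 and 61.7 in PFC and 41.95, 45.1 and 47.5 in HPC, both without overlap. Zbtb20, a zinc finger factor of hippocampal neurons, was at 88.6, 90.1 and 92.03 in PFC and 97.7, 98.3 and 98.4 in HPC, and its -8.19 points missed the minimum of 10 with a log2 difference of -1.89, while all 8 of its other probesets were called lower. Genes of neurogenesis, a process that goes on in the adult dentate gyrus, had a median of -3.11 points. Of 14, Dcx (15.8 points) and Tubb3 (15.02), both of young neurons, were called higher and Igfbpl1 (-17.1) lower. Joint quantile normalization called 4 of them higher and 5 lower. Sox11 lay at 61.8, 65.2 and 69.8 in PFC and 70.04, 76.2 and 78.7 in HPC, a difference of -9.95 points, SE 1.16, just short of the minimum, and all 5 of its other probesets were called lower.

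Of 12 astrocyte genes 1 was called lower, Gfap, the intermediate filament of astrocytes, with ranks of 60.3, 64.02 and 74.6 in PFC and 88.3, 91.1 and 92.9 in HPC, a difference of -24.9 points (SE 1.90, adjusted p = 2.49e-10 by limma), and its 2 other probesets were called lower too. Joint quantile normalization called 5 of the 12 lower, beside 17.4% of all genes. By array, 6 were lower in every PFC array than in every HPC array, where 44.8% of all genes did not overlap in either direction. Among them, the water channel Aqp4 had mean ranks of 87.2 in PFC and 96.2 in HPC, was not called on ranks, and had a joint log2 difference of -1.58 (adjusted p = 3.57e-16 by limma). Of 12 oligodendrocyte genes 3 myelin genes were called higher. Mog had ranks of 76.03, 82.3 and 86.9 in PFC and 60.3, 63.1 and 68.1 in HPC, Mag 87.6, 91.2 and 93.9 in PFC and 75.3, 78.2 and 81.5 in HPC and Opalin 89.9, 92.6 and 95.2 in PFC and 79.01, 81.95 and 84.5 in HPC. None of the 3 overlapped. Joint quantile normalization called 6 of the 12 higher and 1 lower, beside 14.9% of all genes higher and 17.4% lower. Mbp, at mean ranks of 99.99 in PFC and 99.9 in HPC, was not called on ranks, although every PFC array lay above every HPC array, and it was called higher with array medians subtracted (log2 difference 0.93, adjusted p = 9.13e-15 by limma). Of 11 microglial genes and 10 of vessels 0 were called by limma. At an unadjusted p under 0.05, 8 of the microglial genes were lower, and of the vascular genes 2 were higher and 5 lower, and joint quantile normalization called 1 and 2 lower.

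Genes of tissue that lies near the dissected regions were examined as well. Striatal genes had 5 of 8 ranked members called higher in PFC, beside 5.59% of all genes, with a median of 17.5 points. List means by array were 54.7, 68.6 and 74.7 in PFC and 53.5, 54.6 and 55.96 in HPC. Drd2 had ranks of 30.2, 48.7 and 58.00 in PFC and 21.1, 24.3 and 29.4 in HPC, and Gpr6 of 15.6, 56.1 and 65.3 in PFC and 25.9, 29.03 and 34.1 in HPC, with PFC mouse 54 below every HPC array. Gpr6 was called at 19.4 points (SE 5.18, adjusted p = 0.00211 by limma), but without PFC mice 45, 48, 52 and 55 it had 14.7 points (adjusted p = 0.0262 by limma) and was not. Rarb, a retinoic acid receptor, had 57.8, 64.99 and 70.96 in PFC and 38.6, 44.7 and 47.7 in HPC. Pde10a, a phosphodiesterase of striatal neurons, went against these, with ranks of 76.8, 81.8 and 88.7 in PFC and 90.6, 91.6 and 92.8 in HPC, lower in every PFC array at -9.67 points, and joint quantile normalization called it lower, beside 6 members called higher. On the joint scale 14.9% of all genes were called higher and 17.4% lower. Of the striatal genes Drd2 was also counted among the modulator receptors, and Foxp2 and Meis2, described above, are expressed in the striatum as well. Drd1, counted above with layer 6b, had its lowest PFC ranks in mice 49 and 54 (78.9 and 78.6), as did Drd2 (31.4 and 30.2). The part of striatal cells in these values was not tested.

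Of 6 meningeal genes 3 were called lower in PFC, beside 7.54% of all genes. List means by array were 38.2, 42.4 and 55.03 in PFC and 51.7, 57.2 and 58.4 in HPC. Lum, a collagen-binding proteoglycan, had ranks of 31.96, 41.02 and 54.8 in PFC and 62.2, 65.9 and 68.4 in HPC, a difference of -22.8 points (SE 2.72, adjusted p = 2.06e-07 by limma). PFC mice 45, 48, 52 and 55 had list means of 52.6, 54.7, 55.03 and 51.1, and the other 8 PFC mice 38.2 to 43.5. Without those 4 mice 5 of 6 members were called lower. The mice were picked for high ranks of these same genes, so this count is no test. With the mouse as a fixed block, Aldh1a2 (-8.77 points, adjusted p = 0.027 by limma) and Slc6a13 (-8.86 points, adjusted p = 0.00309) fell short of the call that each had without it (-10.6 and -10.8 points). Of 9 ranked choroid plexus genes 1 was called higher, Folr1, and 2 lower, Kl and Clic6, beside 5.59% and 7.54% of all genes. Ttr, the most abundant of them, had 76.1, 90.9 and 96.95 in PFC and 62.6, 88.9 and 94.7 in HPC and was not called. Kcne2, Otx2 and Slc4a5, which define the plexus, had mean ranks of at most 8.97 in both regions. Clic6 differed by -14.8 points, while its other probeset was called higher at 15.8.

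Thalamic genes had 2 of 8 called lower, beside 7.54% of all genes. These were Prkcd (36.04, 39.8 and 46.3 in PFC and 55.8, 63.2 and 68.3 in HPC) and Tcf7l2 (-14.9 points, with 1 of 3 other probesets called higher). Of 6 olfactory bulb genes Cdhr1, a photoreceptor cadherin, was called lower, with ranks of 32.4, 38.02 and 42.2 in PFC and 60.7, 69.97 and 73.8 in HPC, and Th, tyrosine hydroxylase, higher, with 44.6, 46.6 and 51.6 in PFC and 22.1, 24.8 and 27.3 in HPC. Of 10 general neuronal and synaptic genes and of 10 housekeeping genes 0 were called by limma on ranks, with medians of 0.136 and 0.0310 points. In each region 7 and 9 of them had mean ranks above 90, which left little room for 10 points. At an unadjusted p under 0.05, 3 and 3 were higher and 3 and 2 lower. Without overlap of arrays 5 and 3 were higher and 3 and 1 lower, where 44.8% of all genes did not overlap. On the joint log2 scale limma called 2 and 1 higher and 1 and 0 lower, beside 14.9% and 17.4% of all genes. The 1 called lower there was Camk2a, a kinase of excitatory synapses, at a log2 difference of -0.67 (adjusted p = 3.60e-14 by limma). The vesicular glutamate transporter Slc17a7 had ranks of 77.8, 78.9 and 80.97 in PFC and 77.4, 79.4 and 80.7 in HPC, a difference of -0.210 points, SE 0.468.

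**Figure D4:**
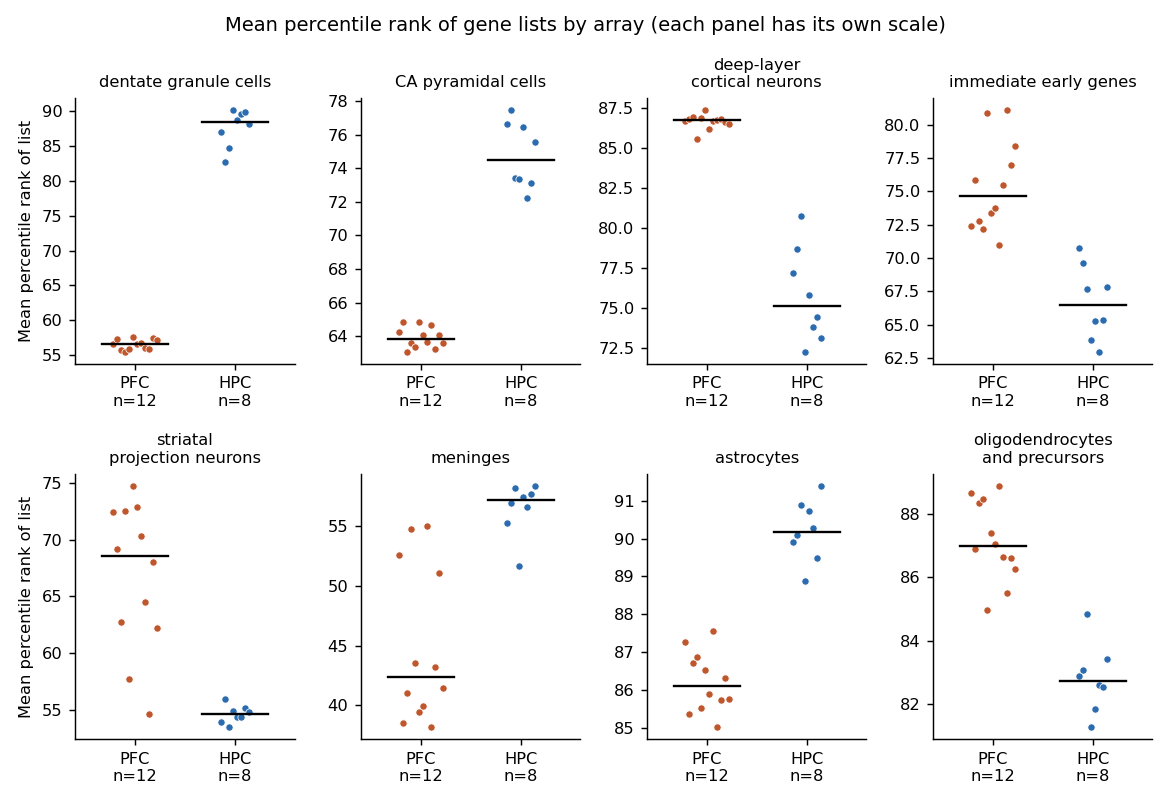
Mean percentile rank of the members of 8 gene lists in each array (y axis, scaled for each panel), PFC left (12 arrays) and HPC right (8 arrays), with the median as a line. List means do not overlap for dentate, CA, deep-layer, immediate early, astrocyte and oligodendrocyte genes, and 4 PFC arrays stand apart in the meningeal panel at 51.1 to 55.0.

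The leading genes were also ranked in the Air NonDrinking arrays of all 5 regions of the study, over 43893 probesets with values everywhere, as a description. Of the 15 genes highest in PFC over HPC, 12 had every PFC array above every array of the nucleus accumbens (NAC), bed nucleus of the stria terminalis (BNST), central nucleus of the amygdala (CeA) and HPC. The exceptions were Dmkn, Foxp2 and Sulf1. Median ranks of Foxp2 were 86.7 in PFC, 93.4 in NAC, 81.7 in BNST, 72.5 in CeA and 34.5 in HPC, and those of Sulf1 81.95 in PFC, 60.2 in NAC, 49.4 in BNST, 95.5 in CeA and 29.5 in HPC. Median ranks of Myl4, in contrast, were 94.6 in PFC, 35.7 in NAC, 37.1 in BNST, 53.1 in CeA and 40.9 in HPC, so that Myl4 ranked far higher in PFC than elsewhere.

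Of the 15 genes lowest in PFC against HPC, 10 had every HPC array above every array of the other regions. Lct had medians of 25.4 in PFC, 11.6 in NAC, 10.2 in BNST, 17.5 in CeA and 94.7 in HPC, and Tdo2 of 32.4 in PFC, 11.5 in NAC, 23.7 in BNST, 27.4 in CeA and 86.01 in HPC. Dsp was high in 2 regions, with 10.8 in PFC, 14.4 in NAC, 17.1 in BNST, 80.9 in CeA and 97.7 in HPC. Npy2r had 24.1 in PFC, 76.9 in NAC, 78.3 in BNST, 86.9 in CeA and 86.7 in HPC, so that the PFC was the one region where it was low. Neurod1 had 53.7 in PFC, 20.97 in NAC, 38.7 in BNST, 74.1 in CeA and 92.6 in HPC, and Cux2 69.9 in PFC, 78.8 in NAC, 81.1 in BNST, 76.6 in CeA and 64.3 in HPC, with the PFC not its highest region. Klotho had 10.5 in PFC, 31.2 in NAC, 31.2 in BNST, 97.4 in CeA and 64.2 in HPC.

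**Figure D5:**
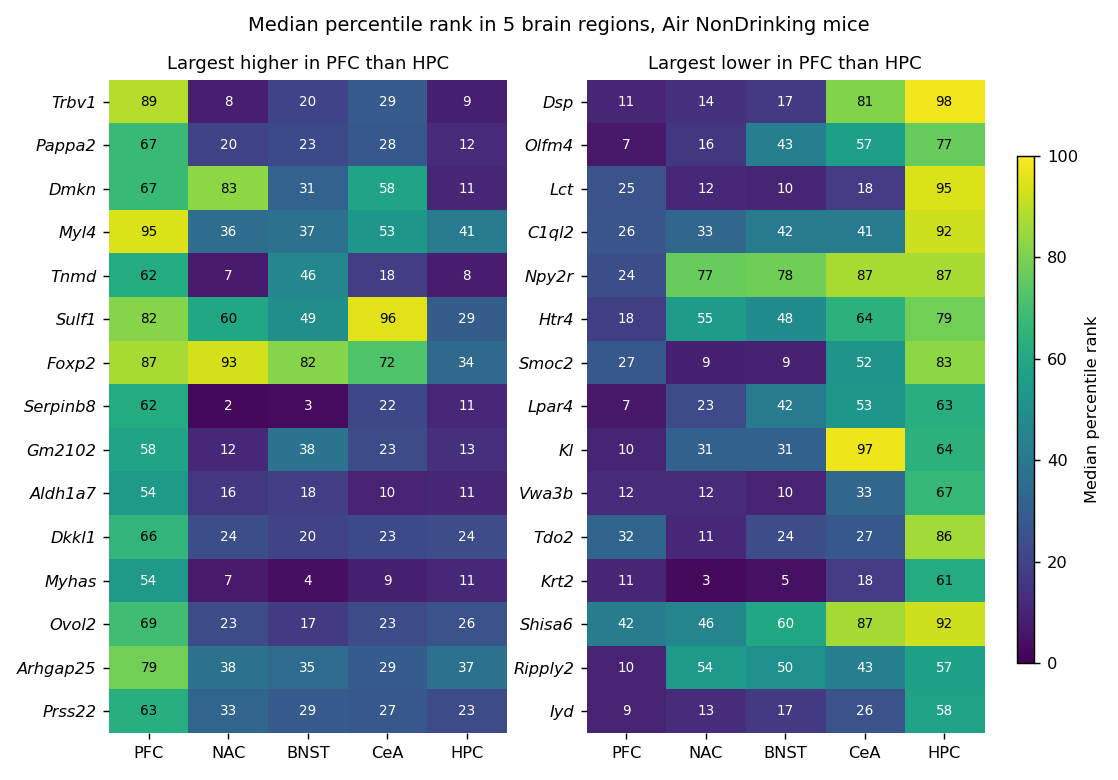
Median percentile rank (color and number) of the 15 genes with the largest positive and the 15 with the largest negative difference of PFC minus HPC, in the PFC, NAC, BNST, CeA and HPC of Air NonDrinking mice. Most genes on the left are bright in the PFC column only, and most on the right in the HPC column, with Npy2r bright everywhere except in PFC.

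The comparison was repeated in the other treatment groups, which share no array with the Air NonDrinking mice. Within a region, however, arrays of all treatment groups were processed and normalized together. Region and processing run therefore cannot be told apart in these groups either. Air Drinking mice breathed air and could drink ethanol (11 PFC and 11 HPC arrays), CIE NonDrinking mice were exposed to ethanol vapor and drank water (12 and 11), and CIE Drinking mice had both vapor and ethanol to drink (12 and 12). PFC against HPC called 7153 probesets in Air Drinking mice (16.1%), 6727 in CIE NonDrinking mice (15.1%) and 6252 in CIE Drinking mice (14.1%). Of the 7351 called in Air NonDrinking mice, 86.0%, 82.1% and 75.9% were called in the same direction in these groups, which is 88.4%, 89.7% and 89.2% of their own calls, and 0 were called in the opposite direction by limma. All 30 leading genes were called in the same direction in each of the 3 groups. Dsp differed by -89.5 points in Air Drinking, -86.9 in CIE NonDrinking and -85.3 in CIE Drinking mice, beside -86.3 in Air NonDrinking mice. Foxp2 differed by 51.1, 51.6 and 51.5 points in these groups, beside 50.4 in Air NonDrinking mice.

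Gene groups repeated to different degrees. Of the 13 granule cell genes called, 13, 13 and 12 were called lower in the 3 groups, and of the 5 deep-layer genes 5, 5 and 4 were called higher, without Fezf2 in CIE Drinking mice. Of the 5 immediate early genes 4 were called higher in each group, without Arc. Of the 9 CA pyramidal genes 7, 7 and 9 were called in the same direction, and of the 4 potassium channel genes 2, 3 and 2. The median of the striatal list was 7.12, 13.1 and 15.7 points in these groups, beside 17.5 in Air NonDrinking mice, and Gpr6 was not called in Air Drinking or CIE NonDrinking mice. Whether the difference of the regions itself changed with treatment was tested as an interaction. Against Air NonDrinking mice 0 probesets passed for Air Drinking (0%) by limma, with 6874 at an unadjusted p under 0.05, and 14 with the mouse as a block. For CIE NonDrinking 332 passed (0.747%), 24 of them with at least 10 points, and for CIE Drinking 2066 (4.65%), 105 of them with at least 10 points. Of the 7351 probesets called between the regions, 739 (10.1%) were among those 2066.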

How the data were processed

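RNA from dissected PFC and HPC of individual mice was hybridized to Affymetrix mouse genome arrays. The authors removed arrays of low quality and outliers, then background-corrected, quantile-normalized and summarized the intensities of each region separately by RMA and adjusted them for hybridization batch with ComBat. The batches are not given in the sources used here and were not modelled. The deposited values are log2 intensities for 45037 probesets. For arrays no count depth exists, and the number of arrays, 12 and 8, limits the precision.

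Of the deposited probesets 574 had no HPC value, and 44463 were ranked within each array from 0 to 100. Ranks of the 20 Air NonDrinking arrays were fitted with limma 3.58.1 (R 4.3.3), 1 mean per region, with Benjamini-Hochberg adjustment over all ranked probesets. Tables and figures were made with Python 3.11.15, numpy 2.4.6, pandas 2.3.3, scipy 1.17.1 and matplotlib 3.10.9. Each gene was represented by the probeset with 1 gene symbol and the highest mean of the region means. By the platform annotation, updated through RefSeq, 34945 probesets had 1 symbol, 932 several and 9160 none. Promoter windows and gene positions are those of RefSeq on GRCm38.p6, and of the 383 genes on 30 lists 348 were ranked and 35 were not analysed here.

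Named genes were the 15 with the largest difference in each direction among called genes with a mean rank of 50 or more in the higher region, the first 2 of each list, up to 4 called members of each list with the largest differences, and Cux2 and Neurod1. The members and lists were chosen with earlier results of these data known. Calb1, C1ql3, Pde10a, Stxbp6, Fam163b, Il16, Socs2, Grik4, Chrna4, Chrm3, Oprd1, Sstr2, Arc, Egr3, Kcne2, Otx2, Slc4a5, Rorb, Rasgrf2 and Bcl11b are outside this rule and were named after their values were seen.

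Mouse numbers in the labels mark the same animal in both regions. Deviations of the 8 same-mouse pairs from their region means correlated at -0.129 to 0.078, those of different mice at -0.243 to 0.182, and the mouse was fitted as a block in alternatives, as a random block with statmod 1.5.0. Further alternatives were normal scores, joint quantile normalization, array medians subtracted, a filter on dim probesets, all treatment groups in the fit, trend and robust variances, array weights, other minimum differences and the mean of a gene's probesets. Leaving out HPC mouse 49, leaving out PFC mice 45, 48, 52 and 55, and a minimum of 1 on the log2 scale were added after the data were seen. In data simulated for this comparison on 44463 probesets, 98 of 100 shifts of 12 points and 99 of 100 of 20 points were recovered, with 0 false calls among 44263. The values were drawn independently for each probeset, and the shifts lay only in the middle of the rank scale. The simulation therefore did not test the ends of the scale or differences between processing runs.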

Additional observations from a re-analysis of the deposited data

Results flagged for a closer look

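Single HPC arrays stood away from the other 7 in 5 of the 131 named genes, by Dixon's criterion, which chance meets in about 1 of 20 groups. In mouse 49, Cux1 ranked at 76.1, against 71.9 to 73.5 in the other HPC arrays, and Kcnh5 at 24.6, against 16.0 to 19.2. In mouse 48, Myl4 ranked at 46.2, against 39.9 to 42.7, and Sox11 at 70.0, against 75.1 to 78.7. In mouse 50, the endothelial tight junction gene Cldn5 ranked at 80.95, against 85.1 to 88.1.

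The difference between the regions itself differed with treatment for 2 named genes, both between CIE Drinking and Air NonDrinking mice. Npy2r differed by -54.9 points in CIE Drinking and -60.9 points in Air NonDrinking mice, a change of 6.02 points (adjusted p = 0.00505 by limma), and was called lower in both groups. The microglial receptor Cx3cr1 differed by -2.50 points in CIE Drinking and 0.64 points in Air NonDrinking mice, a change of -3.14 points (adjusted p = 0.0066 by limma), and was called in neither.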

How the results depend on the processing

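Of the 101 called genes of the naming rule, all 101 kept their call with normal scores, joint quantile normalization, array medians subtracted, the random block for mouse, all treatment groups in the fit, trend and robust variances, and without HPC mouse 49. Array weights lost 1 (Drd1), the fixed term for mouse 2 (Aldh1a2 and Slc6a13), and leaving out PFC mice 45, 48, 52 and 55 lost 1 (Gpr6). Where a gene's probesets were averaged, 91 kept their call, 8 lost it (Grin2d, Kcna4, Kcnj6, Lhx6, Nos1, Npas2, Ntng2 and Tac1) and 2 reversed, Clic6 at 0.49 and Tcf7l2 at 0.24 points. The probesets of these 2 genes differed in direction.

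Counts over all probesets depended on the scale and the minimum difference. Higher and lower in PFC were 7496 and 7616 with joint quantile normalization and a minimum of 0.5 on the log2 scale, 13370 and 6427 with array medians subtracted, 8948 and 8992 with 5 points, and 694 and 773 with 20 points. Without dim probesets, where fewer were tested, they were 2069 and 2199, and 9675 and 8895 by the adjusted p alone. In Air Drinking, CIE NonDrinking and CIE Drinking mice joint quantile normalization called 15018, 14587 and 13800, and the filter on dim probesets left 4071, 3790 and 3442. For the interaction of Air Drinking, 0 on ranks, joint quantile normalization gave 21, the filter 40 and the mouse as a random block 14. The cause of these 3 counts was not tested.

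With the mouse as a random replicate block 3563 probesets were higher and 3792 lower in PFC, and as a fixed term among the 8 paired mice 3552 and 3775. The block changed no other call of the named genes. Genes near the top of the rank scale have little room to differ, and an array is 1 sample of 1 mouse.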
